A study of Mus musculus with 2 samples.

Results

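Rab genes encode the largest family of small GTPases that direct vesicle traffic, and their transcripts were followed here in colonic eosinophils. The members were all genes whose symbol in the deposited table is Rab, a number and at most a letter and a further digit. By this rule 58 of the 23456 genes in the table were members, from 67 transcript rows, and of each gene the row with the most reads was kept. The samples were eosinophils isolated by flow cytometry from enzyme-digested colons of naive wild-type C57BL6 mice. There was 1 group of 2 samples, each made into 3 technical libraries, and no other genotype, treatment or tissue. Transcripts were measured by CEL-Seq, a method that reads tags near the 3′ end of polyadenylated RNA. The sources used here do not give the sort gate, the age and number of mice or whether animals were pooled.

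For each transcript the table holds 1 mean over the 6 libraries of the reads and 1 of the RPKM, which scales reads to a depth of 1000000 and to 1 kilobase of transcript. The samples have no values of their own in it, which leaves no SD or n to give and nothing to test. The values in parentheses after an RPKM are exact 95% Poisson intervals of the reads summed over the libraries, scaled to RPKM. They cover counting error only, and because library depths differed they are approximate on the RPKM scale. The 6 libraries had depths between 1892486 and 4752357 reads, and 7692387 reads in all fell on genes, or 43.8% of the summed depth. A gene listed at 0 had 0 reads, for which a one-sided upper limit of 3 expected reads over the 6 libraries is used, unlike the intervals, which are two-sided. That limit equals 0.390 RPM (reads per 1000000 reads on genes, without length).

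Rab proteins switch between a GDP-bound form, kept soluble by a GDP dissociation inhibitor (GDI), and a GTP-bound form that sits on a membrane through a prenyl tail and recruits effectors. Guanine nucleotide exchange factors turn a Rab on at a given organelle, and GTPase activating proteins turn it off. Each organelle of the secretory and endocytic routes carries its own set of Rab proteins. Eosinophils are granulocytes that store cationic proteins in secretory granules. In granulocytes and mast cells, Rab proteins of the Rab27 and Rab3 groups are known for their part in the docking and release of secretory granules.

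The labelled cell type was checked against 12 eosinophil genes. Of these 11, or 91.7%, had an RPKM of 1 or more, a level that 31.0% of all genes reached. The highest were Alox15, the lipoxygenase of eosinophils, with an RPKM of 230, and the eotaxin receptor Ccr3 with 155. Siglecf reached an RPKM of 77.9 and the granule protein gene Prg2 reached 74.3. The exception was Epx, which encodes eosinophil peroxidase and had an RPKM of 0.265 (0.132 to 0.474) from 11 reads. Genes of other colon cells were present as well. All 14 epithelial genes passed an RPKM of 1, between 5.09 and 89.3, with Epcam at 89.3 and Krt19 at 66.7. Of 7 fibroblast genes 6 passed, or 85.7%, led by Col3a1 at an RPKM of 66.7 and Col1a2 at 35.2. Of 10 macrophage genes 6 passed, or 60%, led by Apoe at 54.3 and Csf1r at 41.0, with Mertk at 0. Listed genes of other blood cells were mostly above 0, as were 69.1% of all genes in the table. Of 8 mast cell and basophil genes 3 passed, or 37.5%, with Hdc at 14.5 and Mcpt1 at 2.47, while Tpsb2 was listed at 0. Of 10 neutrophil genes 3 passed, or 30%, close to the 31.0% of all genes. Retnlg had an RPKM of 11986 and S100a9 had 23.9, while the granule enzyme genes Mpo and Elane were at 0. Of 10 genes of B, plasma and T cells 6 passed, or 60%, with Mzb1 highest at 1.83 and Cd4 next at 1.56. Nearly all of the 3′ sequence of Mzb1 is shared with the overlapping annotated gene SPATA24, so its reads cannot be told apart from reads of that gene. In a bulk sample, fewer cells of a type and less RNA per cell cannot be told apart, and the part that other cells have in the Rab values was not tested.

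Most Rab genes gave reads. Of the 58 members, 31 had an RPKM of 1 or more, which is 53.4%, against 31.0% of all genes in the table. Above 0 were 53 members, or 91.4%, against 69.1% of all genes. At an RPKM of 10 or more were 14 members, or 24.1%, against 8.78% of all genes. No member reached an RPKM of 100, a level that 301 genes, or 1.28% of all, did reach. With 58 members, 0 is close to that share. The median RPKM was 1.64 over the members and 0.186 over all genes, and the median RPM was 10.3 over the members and 1.04 over all genes. The family therefore had more of its members at a moderate level than the table as a whole. The members are 0.247% of all genes. They held a close share of all RPKM, 0.242%, and a larger share of all reads on genes, 0.324% (0.320 to 0.328%, exact binomial interval at 95%). These shares are a description of 1 group of samples, with no test. The RPKM of every member is drawn by role in the plot of Rab genes by role, and 7 members carried 64.9% of the summed RPKM of the family. The lowest of those 7 had an RPKM of 40.9 and the next member had 28.8, and the limit of 7 was set at this gap after the values were seen.

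**Figure D1:**
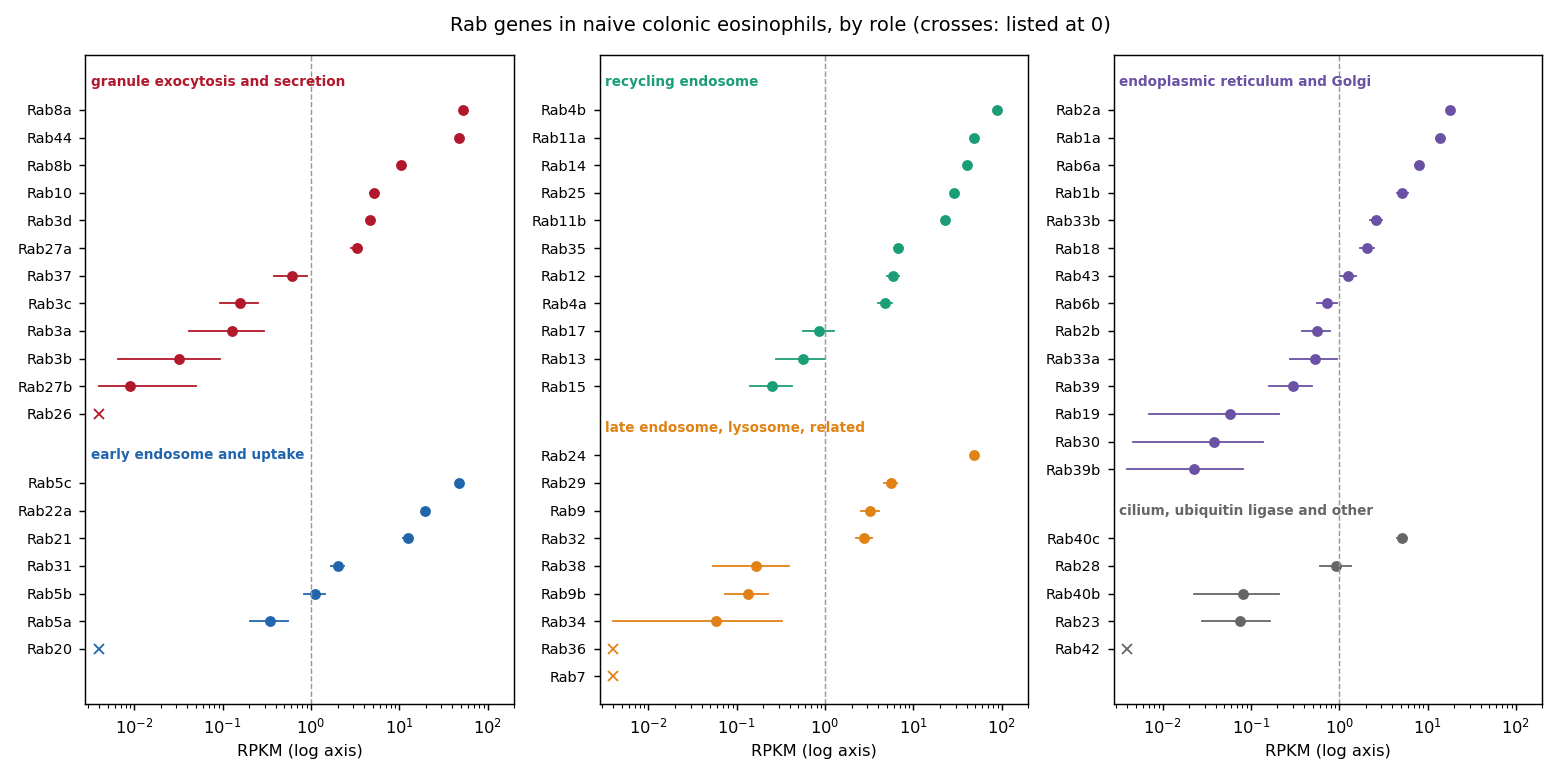
RPKM (log axis) of each Rab gene in naive colonic eosinophils, grouped by role. Points are the authors' mean over 6 libraries, bars are exact 95% Poisson intervals of the reads drawn no lower than 0.004 RPKM, crosses are genes listed at 0, and the dashed line is an RPKM of 1. The recycling endosome holds the highest gene, Rab4b at 89.2, and every role has members on both sides of the dashed line.

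By RPKM the highest member was Rab4b, which drives fast recycling from early endosomes to the cell surface, with 89.2 (85.5 to 93.1) from 2139 reads, the fourth highest number of reads among the members. Nearly all of its 3′ sequence is shared with the overlapping annotated gene Gm21983, so its reads cannot be told apart from reads of that gene. Rab4b was followed by Rab8a, which carries vesicles to the plasma membrane, at 52.3 (49.9 to 54.7). Rab24, linked to autophagy, had 48.6 (46.3 to 50.9), and Rab11a, the Rab of the slow recycling endosome, had 48.1 (45.9 to 50.4). Rab4b lay above the others without overlap of intervals, and the interval of Rab8a overlapped those of Rab24 and Rab11a. The intervals of Rab24, Rab11a, Rab44 at 47.8 (46.3 to 49.3) and Rab5c at 47.2 (44.7 to 49.9) overlapped one another, so their order was not resolved by the counts. Rab14 came next, with an interval below those 4, at 40.9 (39.3 to 42.5). In the mm10 coordinates of the table, Rab4b (NM_029391) spans bases 27168433 to 27178883 of chromosome 7 on the minus strand, and Rab8a (NM_023126) spans 72161200 to 72181366 of chromosome 8 on the plus strand. Rab24 (NM_009000) spans 55319223 to 55321980 of chromosome 13 and Rab11a (NM_017382) spans 64715300 to 64737756 of chromosome 9, both on the minus strand.

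Among 12 genes of granule exocytosis and secretion, 6, or 50%, had an RPKM of 1 or more, against 31.0% of all genes. Their median RPKM was 1.96. The list held 21.6% of the RPKM of the family and 30.4% of its reads. Besides Rab8a, its leading member was Rab44, a large Rab with calcium-binding motifs that is known to act in the degranulation of mouse mast cells. Rab44 had 3826 reads, the most of any member. Rab8b, the close relative of Rab8a, had an RPKM of 10.5 (9.80 to 11.1), and Rab10, which acts in delivery to the plasma membrane, had 5.20 (4.67 to 5.77). The granule Rab genes best known from other secretory cells were lower. Rab3d, the Rab3 form of exocrine and mast cell granules, had an RPKM of 4.68 (4.20 to 5.20). Rab27a, which docks secretory granules of leukocytes and melanosomes, had 3.31 (2.86 to 3.82), from 190 reads. Rab37, known from mast cell granules, had 0.603 (0.382 to 0.905). The Rab3 forms of neurons and endocrine cells had an RPKM of 0.158 for Rab3c, 0.127 for Rab3a and 0.0317 for Rab3b. These lay below the median RPKM of all genes, 0.186, but the intervals of Rab3c (0.0935 to 0.249) and Rab3a (0.0411 to 0.296) include it. Without length, Rab3c at 2.34 RPM lay above the median of all genes, 1.04 RPM, while Rab3a at 0.650 and Rab3b at 0.390 lay below it. Rab27b had 1 read over the 6 libraries, and Rab26, known from zymogen granules, was listed at 0. Within the Rab3 and Rab27 groups, Rab3d with 346 reads and Rab27a with 190 held most reads, with 18 for Rab3c, 5 for Rab3a and 3 for Rab3b. The mast cell and basophil genes beside these values ranged from 0 to an RPKM of 14.5, with the protease gene Cpa3 at 0.319 and the receptor gene Kit at 0.0800.

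Early endosomes and uptake were represented by 7 genes, with a median RPKM of 2.01. Of these 5, or 71.4%, passed an RPKM of 1, against 31.0% of all genes. Rab5c, a form of the Rab that fuses incoming vesicles with early endosomes, led with an RPKM of 47.2 from 1293 reads. Rab22a, which acts on early and recycling endosomes, had 19.6 (18.1 to 21.1), and Rab21, which moves integrins, had 12.4 (11.2 to 13.8). Rab31, which links the Golgi to endosomes, was at 2.01 (1.67 to 2.4). The other Rab5 genes were far lower, with an RPKM of 1.11 (0.835 to 1.45) for Rab5b and 0.348 (0.206 to 0.550) for Rab5a. Rab20, a Rab of phagosomes, was listed at 0.

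The recycling endosome was the role with the highest median, an RPKM of 6.75 over 11 genes. Of these 8, or 72.7%, passed an RPKM of 1, against 31.0% of all genes. The list held 43.2% of the RPKM of the family and 40.4% of its reads. Both shares include Rab4b, whose reads cannot be told apart from those of Gm21983. After Rab4b, Rab11a and Rab14, which acts between the Golgi and endosomes, came Rab25 with an RPKM of 28.8 (26.5 to 31.2) from 600 reads and Rab11b with 22.8 (21.9 to 23.7). Rab35, which works at the plasma membrane, had 6.75 (5.98 to 7.60), Rab12, which acts in transferrin receptor turnover, had 5.90 (5.05 to 6.84), and Rab4a had 4.80 (3.99 to 5.73). Below 1 were Rab17 at 0.860 (0.562 to 1.26), Rab13, known from tight junctions, at 0.562 (0.281 to 1.01), and Rab15 at 0.253 (0.142 to 0.417). Rab25 is known as the epithelial relative of Rab11, and Rab17 is known from transcytosis in epithelial cells. Rab25 lay close to the median RPKM of 28.1 of the 14 epithelial genes, all of which were detected, and their summed RPKM was 404. The part of epithelial RNA in the Rab25 value was not tested.

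Of 9 genes of late endosomes, lysosomes and related organelles, 4, or 44.4%, passed an RPKM of 1, against 31.0% of all genes. The median was 0.165, close to the 0.186 of all genes. Rab24 alone accounted for most of the level of this list, which held 10.5% of the RPKM of the family. Rab29, which acts at lysosomes and the Golgi, had an RPKM of 5.51 (4.59 to 6.56). Rab9, which returns receptors from late endosomes to the Golgi, had 3.26 (2.54 to 4.13), and Rab32, known from lysosome-related organelles, had 2.77 (2.26 to 3.37). Rab38, the partner of Rab32 in melanocytes, had 0.165 (0.0537 to 0.386) from 5 reads, Rab9b had 0.133 and Rab34 had 0.0577. Rab7, the Rab that marks late endosomes in nearly all cells, was listed at 0, as was Rab36. The Rab7 row ends 1329 bases before the most distal coding transcript end of the gene in GENCODE M21 and 71 bases before the nearest. Genes that work with Rab7 were not at 0, and were looked up after the Rab7 value was seen. Ccz1, a subunit of its exchange factor, had an RPKM of 6.93 (6.01 to 7.95), the Mon1a and Mon1b forms of the other subunit had 0.564 and 0.518, and the effector gene Plekhm1 had 3.76 (3.37 to 4.18). The effector gene Rilp had 0.178 (0.0717 to 0.368). The related gene Rab7b is in the table only under an older symbol, so the rule did not take it. It had an RPKM of 1.03 (0.769 to 1.35) from 52 reads.

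The endoplasmic reticulum and Golgi list had 14 genes, with a median RPKM of 0.999 and none at 0. Of these 7, or 50%, passed an RPKM of 1, against 31.0% of all genes. Rab2a, which acts between the endoplasmic reticulum and the Golgi, led with an RPKM of 18.1 (16.7 to 19.5), followed by Rab1a, which drives the same step in the forward direction, with 13.7 (12.6 to 14.8). Rab6a, which moves vesicles within and out of the Golgi, had 7.94 (7.24 to 8.70), and Rab1b had 5.18 (4.47 to 5.98). Rab33b, which acts in Golgi transport and autophagy, had 2.64 (2.24 to 3.08), Rab18, known from lipid droplets, had 2.06 (1.71 to 2.45), and Rab43, a Golgi Rab, had 1.26 (1.02 to 1.55). On the RPKM scale Rab2a and Rab1a lay below Rab4b, Rab11a, Rab14, Rab25 and Rab11b. Against Rab25 this order rested on the division by length, since Rab2a had 633 reads and Rab1a 613, against 600 for Rab25. Of the 5 remaining genes, Rab40c, a Rab with a domain that binds a ubiquitin ligase, had 5.16 (4.50 to 5.88), Rab28 had 0.920 (0.601 to 1.35), and Rab23, known from Hedgehog signalling, had 0.0753 (0.0276 to 0.164). Rab42 was listed at 0. In all, 22 members lay above 0 and under an RPKM of 1, between 0.00901 and 0.920, and the highest after Rab28 and Rab17 were Rab6b at 0.732 and Rab37 at 0.603. The members just inside and just outside the limit of 1 were Rab5b at 1.11 and Rab28 at 0.920, and both intervals include 1.

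Many Rab proteins come in closely related forms that share a number. Among the members were 13 such groups with 29 genes, which gave 16 ratios of the highest form to another form, and in 9 of the groups the highest form stood at least 10 times above every other in RPKM. In RPKM, Rab5c stood 136 times above Rab5a (85.5 to 230) and 42.5 times above Rab5b (32.3 to 56.8). Rab40c stood 62.6 times above Rab40b (24.1 to 232). Rab3d stood 36.9 times above Rab3a (15.7 to 114) and 29.7 times above Rab3c (18.5 to 50.7), Rab2a 32.5 times above Rab2b (22.8 to 48.0), and Rab9 24.5 times above Rab9b (13.7 to 47.1). With reads of Gm21983 possibly counted in Rab4b, the ratio was 18.6 for Rab4b to Rab4a (15.5 to 22.5). It was 10.8 for Rab6a to Rab6b (8.35 to 14.3). It was smaller in the remaining groups with over 3 reads in each form, at 5.0 for Rab8a to Rab8b (4.62 to 5.41), 4.90 for Rab33b to Rab33a (2.73 to 9.69), 2.64 for Rab1a to Rab1b (2.24 to 3.12) and 2.11 for Rab11a to Rab11b (1.99 to 2.24). Where the lower form had 1 to 3 reads the ratio was loose, at 367 for Rab27a to Rab27b (65.2 to 14587), 148 for Rab3d to Rab3b (50.1 to 719) and 13.0 for Rab39 to Rab39b (2.98 to 118). The Rab11 group was the exception on the other scale. Without length, Rab11a had 1831 reads against 2370 for Rab11b, a reads ratio of 0.773, so which of these forms was higher depended on the division by transcript length. In the other 15 ratios the highest form by RPKM also had more reads. Their size changed with the scale as well, and in reads it was 71.8 for Rab5c to Rab5a and 23.9 for Rab5c to Rab5b. It was 7.09 for Rab6a to Rab6b, 7 for Rab39 to Rab39b and 4.93 for Rab9 to Rab9b. For Rab33b to Rab33a it was 13.2 and for Rab8a to Rab8b 2.03. In reads the ratio was thus under 10 in the Rab6, Rab9 and Rab39 groups and over 10 in the Rab33 group, unlike in RPKM.

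**Figure D2:**
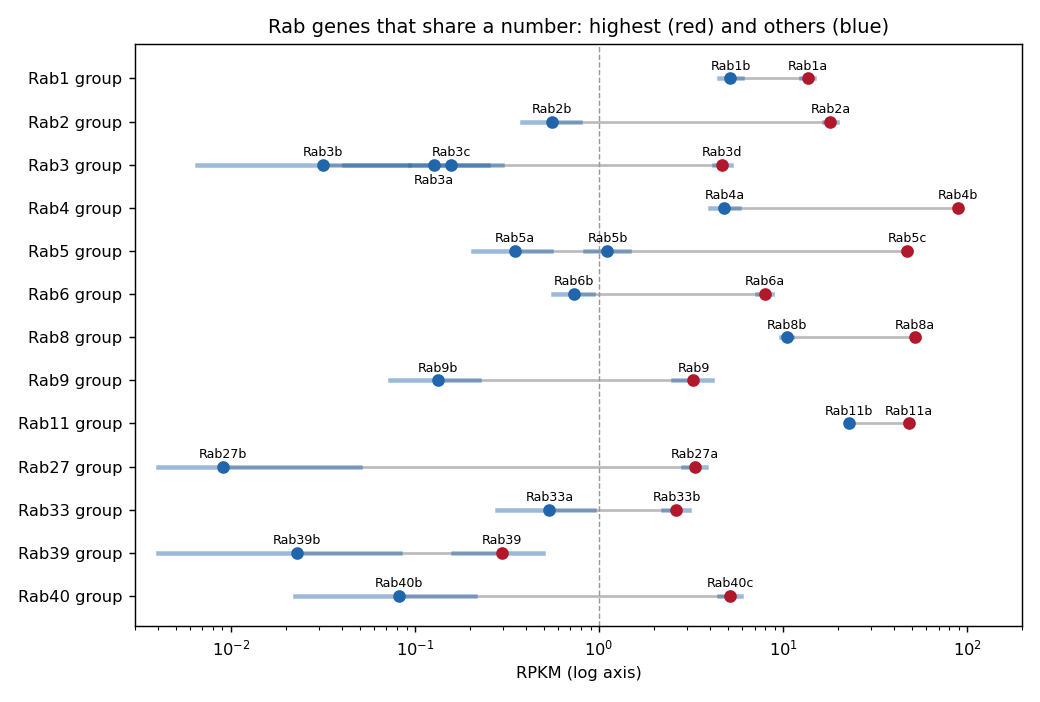
RPKM (log axis) of Rab genes that share a number, with the highest form of each group in red and the others in blue. Shaded bars are exact 95% Poisson intervals of the reads, drawn no lower than 0.004 RPKM, and the dashed line is an RPKM of 1. In the Rab5 group Rab5c is at 47.2 against 1.11 for Rab5b and 0.348 for Rab5a, while both forms of Rab1, Rab8 and Rab11 lie above 5.

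The promoters of Rab5c and Rab5a are printed here because this pair had the most unequal RPKM among those whose lower form had over 3 reads, with the promoter of Rab24 as a member at a level like that of Rab5c. They are the RefSeq promoter windows of build GRCm38.p6, from 250 bases before to 50 bases after the start of the gene, written 5′ to 3′ on the strand of the gene. Capitals mark the GC box (GGGCGG or its reverse complement CCGCCC) and the E-box CACGTG. Rab5c is at chr11:100738166-100738465 on the minus strand, Rab5a at chr17:53478984-53479283 on the plus strand and Rab24 at chr13:55321931-55322230 on the minus strand.
Rab5c: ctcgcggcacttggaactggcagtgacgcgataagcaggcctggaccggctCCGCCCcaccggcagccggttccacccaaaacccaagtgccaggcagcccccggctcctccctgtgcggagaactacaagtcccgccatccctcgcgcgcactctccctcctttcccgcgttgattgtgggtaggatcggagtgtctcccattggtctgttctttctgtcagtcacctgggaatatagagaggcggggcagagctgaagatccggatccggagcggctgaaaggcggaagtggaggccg
Rab5a: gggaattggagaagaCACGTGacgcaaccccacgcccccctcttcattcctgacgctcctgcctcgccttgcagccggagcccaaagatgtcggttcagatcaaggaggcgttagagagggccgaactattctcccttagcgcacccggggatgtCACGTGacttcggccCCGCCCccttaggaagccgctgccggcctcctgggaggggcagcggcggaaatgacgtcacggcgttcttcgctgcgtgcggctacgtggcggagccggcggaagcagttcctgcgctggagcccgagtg
Rab24: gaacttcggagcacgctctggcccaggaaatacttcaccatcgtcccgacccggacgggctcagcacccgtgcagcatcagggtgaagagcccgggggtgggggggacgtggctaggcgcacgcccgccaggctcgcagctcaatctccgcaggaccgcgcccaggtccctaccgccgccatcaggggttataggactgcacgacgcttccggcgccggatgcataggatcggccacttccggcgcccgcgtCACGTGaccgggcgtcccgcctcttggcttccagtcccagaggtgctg
Rab5c and Rab5a each hold 1 GC box, Rab5a also holds 2 E-boxes, and Rab24 holds 1 E-box and no GC box, so the E-box occurred both in a promoter of a high member and in that of a low one. These are matches of letters and say nothing of whether a factor is bound there.

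A RefSeq promoter was matched by symbol for 48 of the 58 members and 13 motifs were searched on both strands, chosen after the levels had been seen. The GC box was in 36 of the 48 promoters, or 75%, against 38.2% of the 27025 genes with a promoter. It was in 70.4% of the 27 members at an RPKM of 1 or more, against 69.8% of the 5843 genes at that level, so the share was close to that of other expressed genes. The motif CCAAT was in 54.2% of member promoters, against 41.1% of all. At an RPKM of 1 or more it was in 55.6% of members, against 41.8% of all genes at that level. The TATA box TATAAA was in 4 member promoters, or 8.33%, against 15.7% of all. Those 4 were Rab39b, Rab3b, Rab42 and Rab7, and each was at 0 or under an RPKM of 1. Among the 27 members at an RPKM of 1 or more, 0 held it, against 9.50% of all genes at that level. CACGTG was in 6 member promoters, or 12.5%, against 8.09% of all, and in 11.1% of the members at an RPKM of 1 or more, against 12.4% of all genes at that level. The longer form TCACGTGA contains CACGTG and is the core of a motif bound by the lysosomal regulator TFEB. It was in 3 member promoters, or 6.25%, against 1.12% of all genes. Those 3 were Rab21, Rab24 and Rab5a. At an RPKM of 1 or more 2 members held it, or 7.41%, against 2.45% of all genes at that level. The motif AGATAA of GATA factors was in 4.17% of member promoters, against 12.7% of all, and GAGGAA of PU.1 was in 22.9%, against 31.3% of all. Past an RPKM of 1 the shares were 3.70% of members against 7.63% of all, and 22.2% of members against 31.7% of all. Of the remaining 6 motifs, CCGGAAGT was in 4.17% of member promoters against 4.31% of all, TGACTCA in 6.25% against 5.95%, and TGACGTCA in 4.17% against 2.03%. TTGCGCAA, the longer C/EBP palindrome that contains it and an NF-kB site were in 0 member promoters, and in 0.207%, 0.00740% and 0.174% of all.

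CEL-Seq counts tags at 1 end of each transcript, whatever its length, so RPKM favours short transcripts over long ones, and the order of the members was compared on both scales. Rab44 was highest without length, at 497 RPM, and stood at rank 318 of all genes by reads. Rab14 followed at 328 RPM and Rab11b at 308, with Rab4b at 278, Rab8a at 246, Rab11a at 238, Rab24 at 230 and Rab5c at 168. Rab4b stood at rank 343 of all genes by RPKM. Of the 7 leading members by RPKM 6 were also among the 7 leading by reads, with Rab11b in place of Rab5c. The granule list gained on this scale through Rab44, with 30.4% of the reads of the family against 21.6% of its RPKM. At 1 RPM or more were 43 of the 58 members, against 50.9% of all genes.

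**Figure D3:**
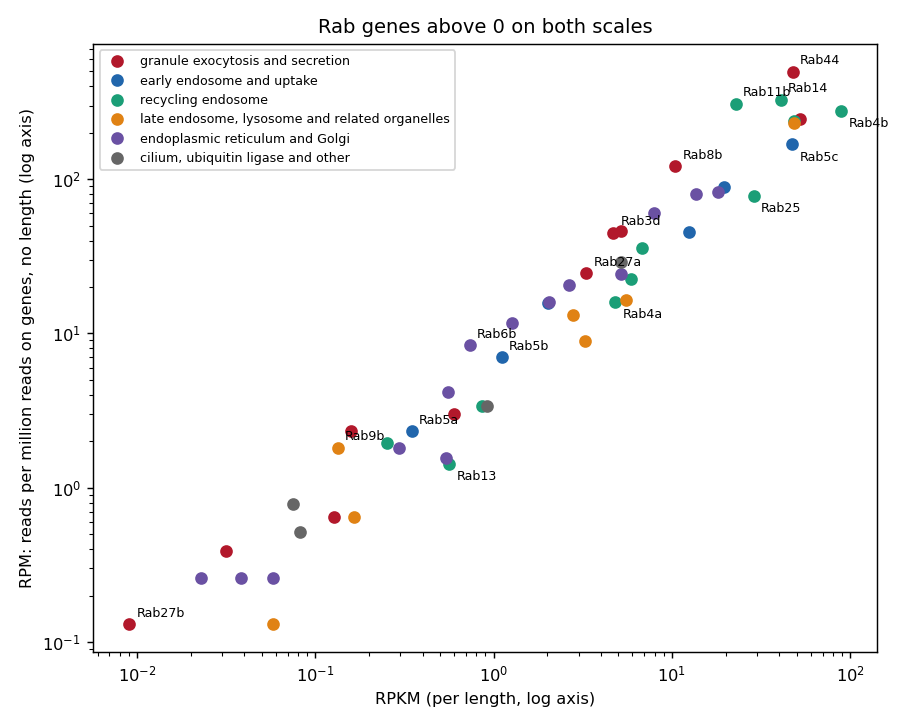
RPM (reads per 1000000 reads on genes, without length) against RPKM for the 53 Rab genes above 0, both on log axes, coloured by role. Each point is 1 gene and 1 mean over the 6 libraries. Rab44 is highest in RPM at 497 while Rab4b is highest in RPKM at 89.2, and Rab25 lies below genes of like RPKM with an RPM of 78.0.

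Whether tags could be assigned to a single Rab gene was examined in the last 500 bases of each matched GENCODE M21 transcript, cut into words of 35 bases. For some members this window is not at the end of the row. The nearest coding transcript end lay 2538 bases beyond the row end for Rab8a, 2778 for Rab21 and 578 for Rab35. For Rab24 it lay more than 100 bases before the row end. For Rab18, Rab22a and Rab30 it lay more than 100 bases before, and the most distal end lay 2823, 5161 and 7418 bases beyond. For all these members the search did not cover the end of the row. For Rab20 and Rab5c the nearest end lay 459 and 255 bases beyond, so the window held less of the row. For Rab7, Rab13, Rab26 and Rab36 the coding ends differed, and cover depended on the transcript matched. For 52 of the 58 members no word of the window occurred in a transcript of another gene. These include Rab18, Rab21, Rab22a, Rab24, Rab30 and Rab35, whose row ends were not searched. Rab4b shared 98.7% of its words with Gm21983 and Rab43 shared 98.3% with Gm45140, which are annotated genes on the same strand that include the last exon of the Rab gene, so reads of the Rab gene and of these transcripts cannot be told apart. The other shares were 36.1% for Rab33b, 11.8% for Rab27a, 10.9% for Rab8a and 1.07% for Rab6b. In the windows searched, Rab27a and Rab8a were the only members that shared words with a transcript of another Rab gene. Without Rab4b and Rab43, 29 members passed an RPKM of 1, and the family held 0.205% of all RPKM. Rows of other genes overlap 8 members. They lie on the opposite strand for Rab10, Rab2b, Rab3a, Rab3b, Rab5a and Rab6a and on the same strand for Rab4b and Rab40c, and the sources used here do not say whether strand was used in counting.

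The end of the transcript row can also bear on a 3′ tag count, because tags beyond it may go uncounted, depending on the counter, which is not named in those sources. For 45 members the row ended within 100 bases of the most distal coding transcript end in GENCODE M21. For Rab24 alone it ended more than 100 bases beyond that end, and for 12 members more than 100 bases before it. These 12 include 4 of the 5 members listed at 0: Rab7 by 1329 bases, Rab20 by 459, Rab26 by 1813 and Rab36 by 648. The nearest coding transcript end was closer for 3 of them, 71 bases beyond the row for Rab7 and 0 for Rab26 and Rab36, and was the same 459 bases for Rab20. The 12 also include 8 of the 53 members above 0, with gaps from 257 bases for Rab5c to 7418 for Rab30, among them Rab8a with 2538 and Rab22a with 5161. The row of Rab42, the fifth member at 0, ended within 100 bases. Members with a long gap were thus both high and at 0, and the part of the row end in the zeros was not tested. This comparison was made after the zeros were seen.

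For members with 6 reads or fewer, the pair of read total and RPKM gave the libraries that held the reads, in 7 of 10 genes. Both reads of Rab19, both of Rab39b and all 4 of Rab40b came from 1 library, that of 4343107 reads, and all 3 of Rab3b came from the library of 4752357 reads. The single read of Rab34 came from the library of 2100580 reads, and the 2 reads of Rab30 came from the 2 deepest libraries, 1 each. Rab38 was spread more widely, with its 5 reads over 4 libraries. For Rab23, Rab27b and Rab3a no split was found. Several of the lowest values thus rest on 1 library, and the intervals, which treat reads as independent, do not cover this. The sources used here do not say to which sample each library belongs.

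The proteins that load, switch and read Rab proteins were described by 5 lists with 135 genes, of which 70, or 51.9%, had an RPKM of 1 or more, against 31.0% of all genes. The family itself stood at 53.4%. GDI, escort and prenylation genes had the highest median RPKM of the lists, 6.03, with 5 of 7 past an RPKM of 1. Rabac1, a Golgi protein that binds prenylated Rab proteins, had an RPKM of 48.6 (45.5 to 51.8), and Gdi2, which extracts Rab proteins from membranes, had 41.0 (39.2 to 42.8). Rabggtb, the catalytic subunit of the enzyme that adds the prenyl tail, had 7.47 (6.33 to 8.75). The escort protein gene Chm followed at 6.03 (5.50 to 6.60), while its relative Chml had 0.0437 from 5 reads.

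Exchange factor genes were at an RPKM of 1 or more in 29 of 43 cases, or 67.4%, against 31.0% of all genes. Their median was 2.00 and none was at 0. The highest were Trappc2l at 43.3, a subunit of the TRAPP complexes that activate Rab proteins at the Golgi, then Dennd5a at 15.9, Dennd4a at 10.4 and Trappc3 at 10.3. Activating protein genes passed in 17 of 33 cases, or 51.5%, with a median of 1.03. They were led by Tbc1d9b at 18.4, Tbc1d8 at 13.0, Tbc1d10c at 10.8 and Tbc1d23 at 10.1, all with the TBC domain that stimulates GTP hydrolysis, and Tbc1d9 was listed at 0. Effectors of endosomal and other Rab proteins passed in 17 of 38 cases, or 44.7%, with a median of 0.919. Rilpl2, a binding partner of phosphorylated Rab8 and Rab10, had an RPKM of 28.0, Inpp5b, a phosphoinositide phosphatase that binds several Rab proteins, had 14.9, Rab11fip1, an effector of Rab11 and Rab25, had 13.8, and the Rab5 effector Appl2 had 10.6.

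The effectors of Rab27 and Rab3 were the lowest list, with 2 of 14 past an RPKM of 1, against 31.0% of all genes, and a median of 0.163. At 0 were 4 of the 14, while 69.1% of all genes were above 0. Without length, 9 of the 14 were at 1 RPM or more, against 50.9% of all genes. The 2 past an RPKM of 1 were Sytl1 and Unc13d. Sytl1, a synaptotagmin-like protein that binds Rab27, had 32.1 (30.4 to 33.8). Unc13d, the granule priming factor Munc13-4, had 7.69 (7.10 to 8.32). Both had a higher RPKM than Rab27a, whose interval ended at 3.82. Next were Mlph at 0.767 and Myo5a at 0.683, which together tie Rab27a to actin in melanocytes. Sytl3, Sytl5, Rph3al and Rims1 were listed at 0. Several genes of this list are known from neurons or endocrine cells.

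**Figure D4:**
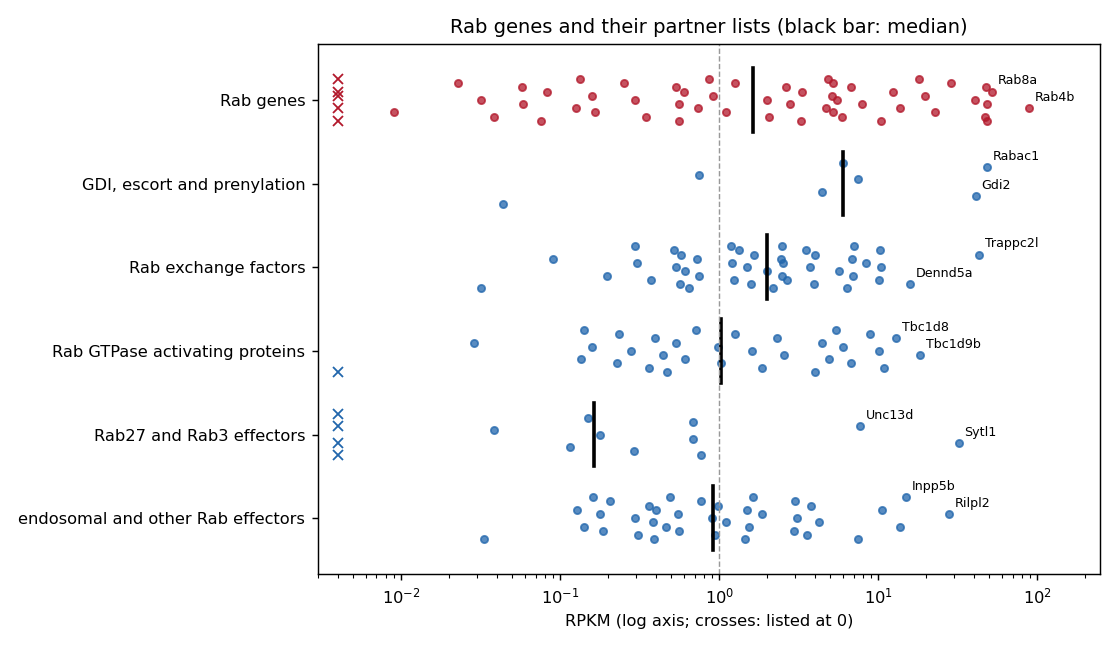
RPKM (log axis) of the 58 Rab genes and of 5 lists of genes that act on or bind Rab proteins, 1 point per gene. Black bars are medians, crosses are genes listed at 0 and drawn at the left edge, and the dashed line is an RPKM of 1. The median is 6.03 for the GDI, escort and prenylation genes and 0.163 for the Rab27 and Rab3 effectors, whose highest points are Sytl1 at 32.1 and Unc13d at 7.69.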

How the data were processed

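CEL-Seq was applied to eosinophils sorted from the colon in 2 samples, which form 1 group, with 3 technical libraries per sample, per the labels' protocols. STAR 2.4.2a, DESeq and the build mm10 are named per the submitters' processing notes. The sources used here do not give the counter, annotation release or transcript lengths. The deposited RPKM values are named so per the file headers. The deposited totals behind them look like a mean over 6 libraries, since 100% of them times 6 are whole within 0.0001. Each column is the authors' mean for the group, and there were 0 columns of other samples.

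Symbols were brought to current names (30726 of 31295 rows by RefSeq accession), so that Rab1 is given as Rab1a and Rab7l1 as Rab29, and 1 row per gene was kept. Of 9 members with several rows, 8 had the same reads in each. Reads over the libraries gave exact Poisson intervals at 95%. RPM divides the mean read total by the 1282064.5 reads on genes per library. The minimum for a detected gene was an RPKM of 1. Library depths were read from transcripts with 1 read in all, and reads of members with up to 6 reads were placed by matching read total and RPKM within a relative tolerance of 2e-06, a limit set after the values were seen. Positions are those of the table. The software was matplotlib 3.10.9, scipy 1.17.1, pandas 2.3.3 and numpy 2.4.6 under Python 3.11.15.

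Every member at an RPKM of 1 or more is named, as are the 4 highest below, those known from granulocytes or epithelium, and those at 0; of each partner list the 4 highest and of each marker list the 2 highest are named, and further genes were chosen after their values were seen. One partner gene is not reported here and was left out of the counts. The members and lists were chosen with earlier results of these data known. The agreement of the 2 samples was not computed, since the values used are 1 per group. Alternatives were other detection minimums, RPM, RPKM rescaled to a sum of 1000000, the row with the highest RPKM, the sum over rows, and leaving out members with 50% or more shared words.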

Additional observations from a re-analysis of the deposited data

How the results depend on the processing

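The number of detected members, 31 of 58, stayed within 1.5 times under 6 of the 7 alternatives, between 21 at a minimum RPKM of 5 and 43 by RPM, and was 53 for any value above 0. The number of role lists with at least 50% of members detected was 4 of 6, and 1 at a minimum RPKM of 5. The partner genes detected, 70 of 135, became 30 at a minimum RPKM of 5, 109 with RPKM rescaled to a sum of 1000000, 123 by RPM and 130 for any value above 0. The share of the family, 0.242% of all RPKM, became 0.324% of reads by RPM, 0.239% for the sum over rows, which counts equal reads of alternative rows more than once, and 0.205% without members with 50% or more shared words. These counts depend on the detection minimum by construction. Rescaling lowered that minimum, since all RPKM summed to 237589, and RPM set it on another scale. The shares differ by construction too, through length, the summed rows or the members left out. Leaving out each sample in turn could not be run, because the table gives 1 value for the group. No paired analysis was possible because there is 1 group. At the depth reached, 0 reads allow a level of up to 0.390 RPM by the one-sided limit of 3 reads, for counting error only.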
